A study of Mus musculus with 8 samples.

Results

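The response of cultured fat cells to chrysotile asbestos was read from 4 of the 8 arrays of the study, the 2 titled for chrysotile and the 2 titled for physiological saline. The cells were 3T3-L1 adipocytes, a mouse preadipocyte line that had been matured into fat cells. Fibres were given at 10 mg/cm2 as the labels print it, a unit that could not be checked here and may be in error, and total RNA was taken after 72 h; the saline cells were the control of the same experiment. The other 4 arrays, 2 of crocidolite and 2 of amosite at the same stated dose and time, entered the estimate of spread and are used below only to place the chrysotile values. The labels speak of duplicate arrays and name no separate cultures, so the spread between replicates may be technical.

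White adipocytes store triglyceride and secrete hormones such as adiponectin and leptin, and under inflammatory stimulation they also secrete acute-phase proteins and chemokines that recruit monocytes. Chrysotile, the serpentine form of asbestos, is a magnesium silicate whose sheets roll into flexible fibrils. In cells of the pleura and in macrophages, asbestos fibres are known for long-lasting inflammatory signalling, oxidant production and matrix remodelling.

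Each value below is the log2 processed intensity of a probe minus the 75th percentile of its array, called the level, and a difference is the chrysotile mean minus the saline mean on that scale, with its SE (2 arrays in each group; the spread was estimated from all 8 arrays). Between 56.2% and 62.8% of 55681 probes were well above background on an array, no spot was saturated, and 22899 genes were tested, each through its brightest probe. Probe positions are on mouse build mm9. All 12 adipocyte markers were well above background on all 4 arrays. Of the markers of other cell types, macrophage C1qa, Lyz2, Mrc1 and Spi1, the muscle genes Myod1, Myog and Myh4, the endothelial genes Cdh5 and Tek and the lymphocyte gene Ms4a1 were above background on none of the 4, while others were measured. Lymphocyte markers were above background for 5 of 6 on both saline arrays and 4 of 6 on both chrysotile arrays, with summed linear levels of 17.3 and 18 against 14.4 and 14.5. Endothelial markers were above background for 2 of 5 and 3 of 5, with sums of 24.4 and 27.4 against 27.5 and 22.7, and their part in the results was not tested. Precision is limited by the small number of arrays. In RNA of whole cultures, fewer cells of a type and less RNA per cell cannot be told apart.

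The genes furthest above their saline levels on the chrysotile arrays included acute-phase proteins, CC chemokines, a proliferin and a troponin, while Fabp4, Pparg and Adipoq overlapped between the groups. The largest non-overlapping differences among genes above background on all 4 arrays belonged to Saa3 (4.12 ± 1.01), the proliferin gene Prl2c5 (3.26 ± 0.65), Ccl2 (3.00 ± 0.56) and Tnnt2 (2.79 ± 0.20). None of the 22899 genes passed an adjusted p of 0.05 in limma (0%), and the smallest adjusted p was 0.13. At an unadjusted p under 0.05, 618 genes were higher (2.7%) and 651 lower (2.84%). That split was 544 to 1451 with normexp background correction and 630 to 400 with arrays centred on their medians. With the replicate number as a block the counts were 1227 and 1242, and still none passed after adjustment (smallest adjusted p = 0.223). Every gene difference below is therefore given as a measured value that did not pass the test over all genes.

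By size alone, 182 genes were at least 2-fold higher with both chrysotile arrays above both saline arrays (0.795%), and 110 were at least 2-fold lower with no overlap (0.48%). Under normexp correction these counts were 112 and 8. Without the size rule, the groups did not overlap for 13.6% of all genes with chrysotile higher and for 16.4% with chrysotile lower. A lack of overlap is therefore common here and is given below only as a description. When genes were divided by brightness into 3 groups of 7633, 114 of the 182 higher genes and 97 of the 110 lower genes lay in the dimmest group. There the median gap between the saline arrays was 0.41, against 0.18 in the brightest group. Among the higher genes 137 had a symbol and 93 were above background on all 4 arrays, and 61 were below background on both saline arrays. Among the lower genes 66 had a symbol and 50 were above background on all 4 arrays, and 36 were below background on both chrysotile arrays.

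The replicate arrays did not carry equal differences. Chrysotile 2 was the higher of the chrysotile arrays in 71.4% of the 182 higher genes, against 40.2% of all genes. Array pairs with the same number shared a column of the slide, and the chrysotile minus saline differences of the pairs had a correlation of 0.08 across genes, which are not independent replicates. The same sign was found in both pairs for 50.9% of genes. The saline arrays differed from each other with an SD of 0.543 over genes, and the chrysotile arrays with an SD of 0.434. Each group occupied its own row of the slide, so row and group cannot be told apart.

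**Figure D1:**
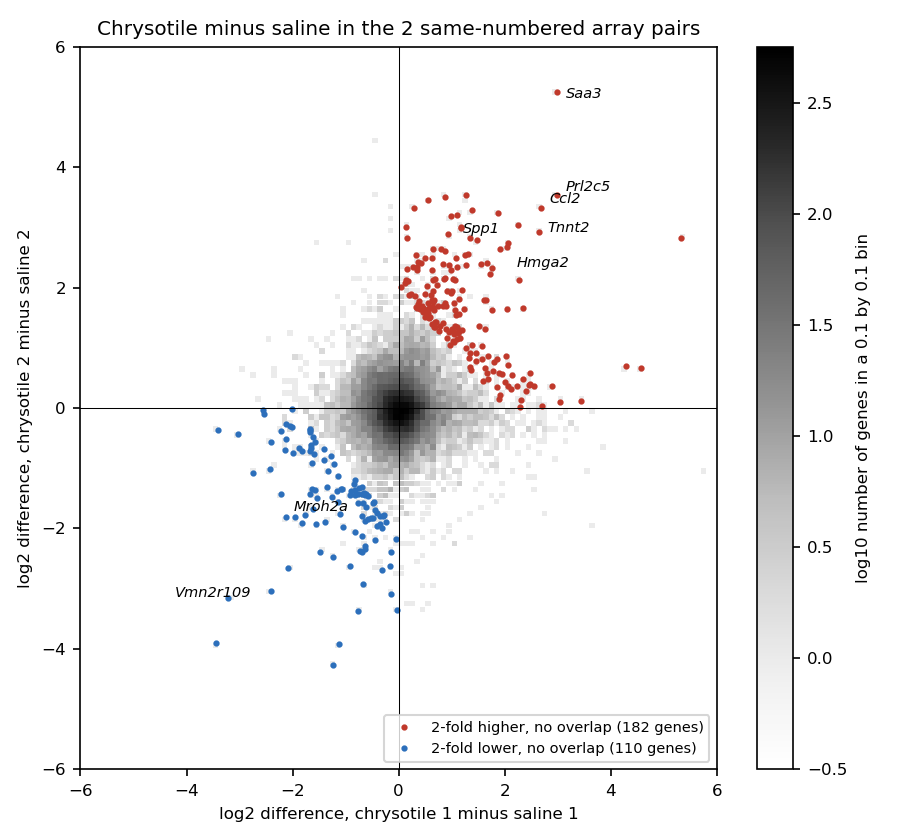
Log2 difference of chrysotile minus saline in the replicate 1 pair (horizontal axis) and the replicate 2 pair (vertical axis); grey squares count the 22899 genes and coloured points are the 182 genes at least 2-fold higher and the 110 at least 2-fold lower with no overlap. Most genes form a round cloud at 0 with a correlation of 0.08, and Saa3, Prl2c5, Ccl2 and Tnnt2 lie far out on both axes.

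Acute-phase proteins are secreted in inflammation, and several are made by fat cells. Saa3, a serum amyloid A protein (probe on chromosome 7, 53970389 to 53970448), had levels of -4.16 and -3.08 on the saline arrays and -1.17 and 2.17 on the chrysotile arrays, a 17.4-fold difference in the means (limma, unadjusted p = 0.00595, adjusted p = 0.866). The groups did not overlap, and the pair differences were 2.99 and 5.26. Lcn2, a lipocalin that binds bacterial siderophores, stood at -1.28 and -1.56 with saline and at -0.01 and 1.98 with chrysotile (2.41 ± 0.63). Serpina3g, a serpin of the antichymotrypsin cluster, stood at -2.29 and -1.84 against -0.41 and 1.40 (2.56 ± 0.57). Slpi, a secreted inhibitor of leukocyte proteases, stood at -1.67 and -1.91 against -0.28 and 1.38 (2.34 ± 0.50). In all of these the second chrysotile array was the higher. Haptoglobin, Hp, was at 3.97 and 5.67 with saline and at 5.23 and 9.12 with chrysotile, so its groups overlapped (2.36 ± 1.30). Serpina3 and Saa genes have close copies, so reads of one by the probe of another cannot be separated here.

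Of the 21 acute-phase genes tested, 19 were higher and 2 lower, with a median of 0.77 where the median of all genes was -0.01 and 47.3% of all genes were higher. At an unadjusted p under 0.05, 7 were higher and 1 lower (Orm3, an orosomucoid, -0.81), where 2.7% of all genes were higher and 2.84% lower. The median was 0.26 in the replicate 1 pair and 1.29 in the replicate 2 pair, 0.20 without chrysotile replicate 2 and 0.44 with normexp correction. Complement genes had a median of 0.18 over 16 (0.08 without chrysotile replicate 2). The largest of them was C4b, a component of the classical pathway, which had levels of 4.64 and 5.24 with saline and 6.19 and 7.64 with chrysotile (1.97 ± 0.52). Factor B, Cfb, an enzyme of the alternative pathway, stood at 1.29 ± 0.68 and C3, the shared central component, at 0.21.

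Chemokines direct leukocyte migration, the CC family mainly that of monocytes and lymphocytes. Ccl2, the main monocyte attractant (chromosome 11, 81850650 to 81850709), stood at -0.85 and 0.13 with saline and at 1.83 and 3.46 with chrysotile, 8.01-fold by the means (unadjusted p = 0.00158, adjusted p = 0.866 in limma). Ccl8, its neighbour on chromosome 11 (81930108 to 81930167), stood at -0.27 and 0.27 against 1.64 and 2.92 (2.28 ± 0.42). Ccl7, of the same cluster, stood at 1.03 and 1.21 against 2.09 and 2.84 (1.34 ± 0.25). The chrysotile arrays were above the saline arrays for each of these monocyte attractants. Ccl9, at -0.96 and -0.06 against 0.38 and 2.76, differed by 2.08 ± 0.76, and Ccl6 by 1.23.

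Among 12 CC chemokines tested, 9 were higher and 3 lower, with a median of 0.58 (0.56 and 0.86 in the pairs). The median was 0.93 without saline replicate 1, 0.35 without chrysotile replicate 2 and 0.26 with no filter on dim probes. The unadjusted test passed 5 higher and 1 lower (Ccl28, a mucosal chemokine, -0.74), where it passed 2.7% of all genes as higher and 2.84% as lower. Ccl3, Ccl4, Ccl12, Ccl20 and Ccl22 were above background on none of the 4 arrays. The CXC and CX3C chemokines had a median of 0.12 over 11, which was -0.08 with normexp correction and ran from -0.07 without saline replicate 1 to 0.48 without saline replicate 2. Cxcl12, a homing signal for blood progenitors, stood at 5.08 and 6.25 against 6.54 and 7.17 (1.19 ± 0.39), though its other probe gave 0.42. The neutrophil attractants Cxcl1 (1.06 ± 0.41) and Cxcl5 (0.78 ± 0.31) and the membrane-bound Cx3cl1 (0.65 ± 0.19) had smaller differences. Tnf, Il1a, Il1b, Csf2 and Csf3 were above background on none of the arrays, and Il6 stood at 0.58 ± 0.52.

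Macrophage colony-stimulating factor, Csf1, had levels of 2.05 and 1.80 with saline and 2.63 and 2.70 with chrysotile (0.74 ± 0.17). Of 20 cytokine receptors, 14 were higher, with a median of 0.24 (0.10 without chrysotile replicate 2 and 0.10 with normexp correction). Il1rl1, the receptor of interleukin 33, stood at -2.58 and -3.33 against -1.32 and -0.78 (1.91 ± 0.43, and 2.06 by its other probe). Its ligand Il33 stood at 0.73 ± 0.31. Osmr, the oncostatin M receptor, stood at 1.90 and 1.98 against 2.75 and 4.13 (1.5 ± 0.41), and Tnfrsf12a, the receptor of the cytokine TWEAK, at 1.82 and 2.19 against 2.86 and 3.46 (1.16 ± 0.23). The groups were apart for all 3 receptors, as for 13.6% of all genes in this direction.

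The NF-kB pathway carries Toll-like and cytokine receptor signals, and many of its own inhibitors are its targets. Of 19 genes tested from a list for this pathway, not all of them inhibitors, 18 were higher and 1 was lower. Their median was 0.31 (0.16 and 0.43 in the pairs). At an unadjusted p under 0.05, 7 were higher, where 2.7% of all genes were. The median was 0.12 without chrysotile replicate 2 and 0.19 with normexp correction. Tlr2, a receptor for bacterial lipoproteins, stood at 0.00 and -0.38 against 0.58 and 1.28 (1.12 ± 0.28), and Nfkbie, an inhibitor of NF-kB, at -2.34 and -2.73 against -1.79 and -1.36 (0.96 ± 0.22). Vcam1, an adhesion molecule for leukocytes, stood at 3.23 and 3.24 against 3.83 and 4.03 (0.70 ± 0.14). The classical inhibitor Nfkbia (0.03) and the subunit Rela (0.03) were near 0. Within the inflammasome list, whose median of 0.04 over 11 was -0.01 with normexp correction and 0.18 without chrysotile replicate 2, Casp4, a caspase that senses cytosolic lipopolysaccharide, stood at 1.18 and 1.22 against 1.85 and 2.57 (1.01 ± 0.23), and Nlrp3, the sensor that asbestos is known to engage in macrophages, at -0.11.

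Macrophage markers were measured beside these genes. Of 13 markers 6 were above background on both saline arrays and 6 on both chrysotile arrays, and their summed linear level, relative to the 75th percentile, was 59.9 and 65.3 with saline and 57.8 and 66.5 with chrysotile. Such a sum rests mostly on the brightest markers. Of the 7 markers tested, 5 were higher and 2 lower, with a median of 0.09 and pair medians of 0.50 and 0.37. The wider list of 10 genes had 6 higher and 4 lower, with a median of 0.05. Cd68, a lysosomal glycoprotein, stood at 0.59 ± 0.17 by 1 probe and -0.02 by the other, and Cd14 at 0.69 ± 0.30. The markers Lyz2, Mrc1, C1qa and Spi1 were not above background on any of the arrays. These counts and sums are a description, and the part of macrophage RNA in the differences was not tested.

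Secreted proteases and their inhibitors remodel the matrix, and the urokinase system activates plasminogen at the cell surface. Mmp13, a collagenase, stood at -0.85 and -0.76 with saline and at 0.42 and 1.62 with chrysotile (1.82 ± 0.42), and Mmp3, a stromelysin, at 0.39 and -0.15 against 1.38 and 2.15 (1.64 ± 0.39). Plaur, the urokinase receptor, stood at -3.38 and -3.05 against -1.75 and -1.74 (1.47 ± 0.19, limma unadjusted p = 0.000232, adjusted p = 0.38), above background on 1 of 2 saline arrays. The chrysotile arrays were nearly identical for Plaur and apart for both metalloproteinases.

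The 120 bases before the annotated start of these 3 genes are shown because each holds the letters of the AP-1 motif, TGANTCA; the sequences are RefSeq's on GRCm38.p6, written on the strand of the gene, with AP-1 letters and the TATA letters TATAAA in capitals. These genes were chosen for printing after their values were seen. Saa3, Tnnt2, Lcn2, Spp1 and Hmga2, which had larger differences, held no AP-1 letters in the 250 bases before their starts. The window of Mmp13 lies at chr9:7272394-7272513, that of Mmp3 at chr9:7445702-7445821 and that of Plaur at chr7:24462363-24462482, all on the plus strand.
Mmp13: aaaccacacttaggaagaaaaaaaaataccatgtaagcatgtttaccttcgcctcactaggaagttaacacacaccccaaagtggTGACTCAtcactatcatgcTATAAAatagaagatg
Mmp3: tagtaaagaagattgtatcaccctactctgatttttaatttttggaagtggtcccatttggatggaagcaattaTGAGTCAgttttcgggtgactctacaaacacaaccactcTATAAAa
Plaur: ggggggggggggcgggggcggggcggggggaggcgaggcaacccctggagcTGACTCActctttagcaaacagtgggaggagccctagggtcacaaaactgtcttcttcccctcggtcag
AP-1 factors are dimers of FOS and JUN proteins. Searched on both strands over the 250 bases before the start, the AP-1 letters were in 17 of the 101 genes with a promoter entry among those 2-fold higher (16.8%), in 4 of 50 among those 2-fold lower (8%), in 715 of 11992 tested genes (5.96%) and in 6.75% of all 32851 promoters of the table. Besides the 3 genes shown, the 17 included Mmp10, Ccl9, Car9, Tfpi2 and Oas3, of which Mmp10, Tfpi2 and Oas3 were below background on both saline arrays. The TATA letters were in 17.8%, 22% and 9.67% of the same 3 gene sets and in 12.4% of all promoters. Of the other motifs searched, 5 in all, one form of the NF-kB motif was in 2 of the 101 higher genes (Cxcl1 and Cdhr1; 0.475% of tested genes), and one form each of the SRF and C/EBP motifs was in 1. A match describes the letters and does not show that a factor binds there. The 2-fold sets were picked by size from these same data. Of the 182 higher genes, 61 were below background on both saline arrays. The shares are given as a description, and a difference between them was not tested.

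Plau, urokinase itself, was below background on both saline arrays and at -3.55 and -3.16 with chrysotile, at least 2.79-fold higher when saline is set to the lowest level called above background. Mmp10, another stromelysin, was at least 1.64-fold higher by the same rule. Timp1, a metalloproteinase inhibitor, stood at 2.27 and 2.15 against 2.86 and 3.67 (1.06 ± 0.28). For Timp1, as for Mmp3 and Mmp13, both chrysotile arrays lay above both saline arrays. Of 13 plasminogen-system genes 12 were higher, with a median of 0.38 (0.34 and 0.43 in the pairs). It was 0.15 with normexp correction, 0.18 with no filter on dim probes and 0.58 without saline replicate 1. Of these genes 10 were above background on both saline arrays and 12 on both chrysotile arrays. Members dim with saline could thus enter the test through a fibre group, which favours higher values. Of 22 matrix proteases and inhibitors 15 were higher, with a median of 0.20 (0.04 and 0.35). It was 0.17 with no filter on dim probes, 0.36 without saline replicate 1 and 0.06 without saline replicate 2. The same limit holds for this list, with 20 above background on both saline arrays and 22 on both chrysotile arrays. The gelatinase Mmp2 (0.16), Timp2 (-0.05) and the tissue plasminogen activator Plat (0.04) were near 0, and Mmp9 and Mmp12 were above background on none of the arrays.

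Spp1, which encodes osteopontin, a secreted ligand of integrins and CD44, stood at 0.64 and 0.97 with saline and at 2.71 and 3.71 with chrysotile (2.41 ± 0.32, limma adjusted p = 0.38), and the groups were well apart. Its receptor Cd44 stood at 0.46. Among 28 matrix-signalling and contractile targets of SRF and YAP, 26 were higher and 2 lower, with a median of 0.26. Of these, 5 had an unadjusted p under 0.05, and 13 with the replicate block, where all 22899 genes gave 618 and 1227 higher. The connective tissue growth factor Ccn2 stood at -3.74 and -3.11 against -3.06 and -0.96 (1.41 ± 0.91), and Ccn5 at 0.58 and 0.78 against 1.19 and 2.45 (1.14 ± 0.38). The summed level of 8 preadipocyte and fibroblast markers was 338 and 270 with saline and 417 and 241 with chrysotile, and its part in these values was not tested. The collagens had a median of 0.08 over 20 (0.01 without chrysotile replicate 2), with Col1a1 at -0.04, Col3a1 at -0.11 and the fibril-associated Col12a1 at 1.14 ± 0.33.

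**Figure D2:**
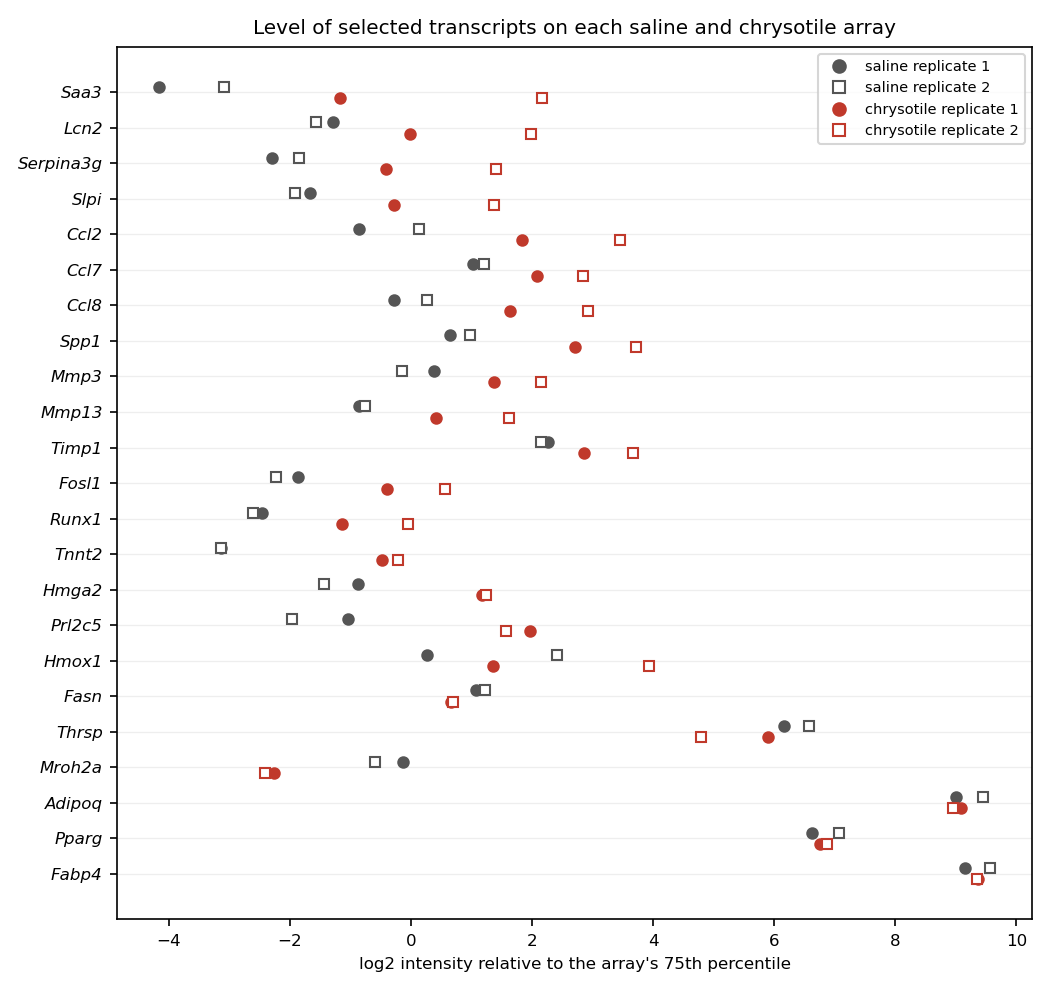
Level of selected transcripts (log2 intensity relative to the 75th percentile of the array) on the saline arrays (grey) and chrysotile arrays (red); filled circles are replicate 1 and open squares replicate 2. The inflammatory and protease genes sit higher on both chrysotile arrays, both chrysotile arrays nearly coincide for Hmga2 (1.18 and 1.24), and Adipoq, Pparg and Fabp4 overlap between the groups.

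The difference with the smallest p was that of Tnnt2, a troponin of the thin filament of heart muscle (chromosome 1, 137747976 to 137748288). Its level was -3.13 and -3.14 with saline and -0.48 and -0.22 with chrysotile, a difference of 2.79 ± 0.20 or 6.89-fold (limma, unadjusted p = 7.22e-06, adjusted p = 0.13). The replicates of each group almost coincided. It passed 0.05 after quantile normalization (adjusted p = 0.0426), median centring (0.0307), a trended and robust prior (0.0488) and without saline replicate 2 (0.0488), within a range from 0.0307 to 0.773 over its alternatives. Of the 14 thin filament and sarcomere genes tested, Tnnt2 included, 5 were higher and the median was -0.06, which was 0.15 without saline replicate 1 and -0.20 without saline replicate 2. Tnnt1 stood at -0.45 (0.54 by its other probe), Tnni1 at 0.16, Tnnc1 at -0.03 and Tnnt3 at 0.00. Myh6, a cardiac myosin, was at -3.64 and -1.67 with saline and below background with chrysotile, at least 5.08-fold lower.

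Hmga2, an architectural chromatin protein of embryonic and growing cells (chromosome 10, 119798739 to 119798798), stood at -0.87 and -1.43 with saline and at 1.18 and 1.24 with chrysotile (2.36 ± 0.31, adjusted p = 0.38 in limma), and its other probe gave 2.29. Its paralog Hmga1 stood at 0.32 ± 0.16, with probes from -0.34 to 0.32. Igf2bp2, an RNA-binding protein whose gene is a known target of HMGA2, stood at 1.96 and 2.72 against 3.02 and 3.04 (0.69 ± 0.25). The chrysotile replicates of both Hmga2 and Igf2bp2 lay closer together than the saline replicates. Prl2c5, a proliferin (chromosome 13, 13282998 to 13283933), stood at -1.03 and -1.97 against 1.96 and 1.57, and Prl2c1 at -0.82 and -2.09 against 1.43 and 0.95 (2.65 ± 0.71). Proliferin genes are near-identical copies, so these values may describe one transcript or several.

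Transcription factors of the AP-1 and immediate early group had a median of 0.18 over 26, with 20 higher; it was 0.35 without saline replicate 1, 0.31 without chrysotile replicate 1 and 0.12 without chrysotile replicate 2. Fosl1, the AP-1 subunit FRA-1 (chromosome 19, 5455496 to 5455555), stood at -1.87 and -2.22 with saline and at -0.39 and 0.57 with chrysotile (2.14 ± 0.37, 4.40-fold). Its possible partners Junb (0.81 ± 0.53), Jun (-0.01) and Jund (-0.04) and the related Fosl2 (0.10) had smaller values, and Fos stood at 0.61. Runx1, a factor of blood and mesenchymal development (chromosome 16, 92605785 to 92605844), stood at -2.45 and -2.60 against -1.14 and -0.04 (1.94 ± 0.34), with Runx2 at 0.03. Fosl1 and Runx1 were each higher on both chrysotile arrays, and more so on the second.

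Among growth factors, Ereg, a ligand of the epidermal growth factor receptor, stood at -4.24 and -4.49 with saline, above background on 1 of the arrays, and at -2.63 and -2.69 with chrysotile (1.71 ± 0.20, limma adjusted p = 0.38). The related ligand Hbegf stood at -3.73 and -4.33 against -3.20 and -2.88 (0.98 ± 0.28), and Areg and Tgfa were above background on none of the arrays. The list of 25 growth factors and receptors had a median of 0.03 (-0.01 without chrysotile replicate 1), with Inhba, a subunit of activin, at 0.87 ± 0.24 and Vegfa at 0.03. Prostaglandin synthesis genes had a median of 0.04 over 12, which was -0.02 with normexp correction and 0.13 without saline replicate 2. Ptgs2, the inducible cyclooxygenase, was below background with saline and at least 1.01-fold higher, and Ptgs1, the constitutive form, stood at 2.49 and 2.29 against 2.95 and 3.11 (0.64 ± 0.13).

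Heme oxygenase and iron genes are known to respond to oxidants and iron. Hmox1, the inducible heme oxygenase, stood at 0.26 and 2.42 with saline and at 1.36 and 3.94 with chrysotile. The groups overlapped and the difference was 1.31 ± 1.35, whereas the pair differences were 1.09 and 1.53. The unadjusted p in limma with the replicate block was 0.000149, but no gene passed after adjustment in that fit (smallest adjusted p = 0.223). Over the alternative settings the Hmox1 difference ran from 0.02 to 2.6. The ferrireductases Steap1, at -1.66 and -2.17 against -0.57 and -0.62, and Steap4 stood at 1.32 ± 0.30 and 1.31 ± 0.52. Tfrc, the transferrin receptor, stood at 1.75 and 2.20 against 1.43 and 1.14 (-0.69 ± 0.28), and the ferritin chains Fth1 (-0.10) and Ftl1 (0.00) were near 0. Antioxidant genes had a median of -0.01 over 28, which was 0.04 with median centring and 0.09 without saline replicate 2; 14 were higher and 14 lower, with Nqo1 at 0.23, Gclm at 0.28 and Txnrd1 at 0.06. Of the metallothioneins, Mt2 stood at 5.99 and 5.89 against 6.6 and 7.05 (0.89 ± 0.26) and Mt1 at 0.13.

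Interferon-response genes depended on which saline array was used. Of 38 genes 35 were higher, with a median of 0.30, but the median was 0.55 in the replicate 1 pair and 0.08 in the replicate 2 pair, and it was -0.09 without saline replicate 1, 0.73 without saline replicate 2, 0.48 without chrysotile replicate 1 and 0.14 without chrysotile replicate 2. Isg15, a ubiquitin-like protein, showed the pattern with levels of 3.38 and 4.90 on saline and 4.74 and 5.14 on chrysotile. Oas3, an oligoadenylate synthase, was an exception in that it was below background on both saline arrays and at least 2.13-fold higher, with a fitted difference of 1.13 ± 0.18. Isg20, an exonuclease, stood at 2.33 and 2.31 against 2.99 and 3.29 (0.82 ± 0.20).

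Several defining transcripts of the fat cell overlapped between the groups. Of the 12 adipocyte markers, 0 were higher and 12 lower before rounding, with a median of -0.14 (0.05 and -0.22 in the pairs). Their summed linear levels were 3320 and 4160 with saline and 3470 and 3380 with chrysotile. Fabp4, the fatty acid carrier, stood at 9.15 and 9.57 with saline and at 9.37 and 9.35 with chrysotile, a difference of 0.00 ± 0.16. Pparg, the master regulator of adipogenesis, stood at 6.62 and 7.07 against 6.75 and 6.87 (-0.03 ± 0.17), and Adipoq, adiponectin, at 9 and 9.44 against 9.08 and 8.95 (-0.20 ± 0.17). The groups overlapped for all 3. Plin1, which coats the lipid droplet, stood at -0.22 ± 0.27, the insulin-responsive glucose transporter Slc2a4 at -0.33 ± 0.21, Cebpa at -0.15 ± 0.36 and leptin at -0.15 ± 0.52. Of 29 adipocyte identity genes 26 were lower, with a median of -0.12, which was -0.29 without saline replicate 1 and 0.06 without saline replicate 2, and -0.06 and -0.21 without chrysotile replicates 1 and 2. Cebpd, an early adipogenic factor that inflammation also induces, stood at 3.12 and 3.31 against 3.56 and 4.29 (0.71 ± 0.24). At an unadjusted p under 0.05 it was the 1 higher gene of the list, with 0 lower. With the replicate block 1 was higher and 5 were lower, among them the beta-3 adrenergic receptor gene Adrb3 (-0.46) and Gpd1, a glycerol phosphate dehydrogenase (-0.41). Over all 22899 genes 618 were higher and 651 lower at this threshold, and the block gave 1227 higher and 1242 lower.

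Lipogenic enzymes were lower in 16 of 20 cases, with a median of -0.16 (-0.08 and -0.29 in the pairs). Fasn, fatty acid synthase, stood at 1.08 and 1.22 with saline and at 0.66 and 0.70 with chrysotile (-0.47 ± 0.12). Thrsp, a regulator of lipogenesis, stood at 6.16 and 6.57 against 5.89 and 4.79 (-1.03 ± 0.35), and Acacb, an acetyl-CoA carboxylase, at 1.90 and 2.13 against 1.57 and 1.46 (-0.50 ± 0.18). The groups did not overlap for these 3, as for 16.4% of all genes in this direction, while Scd1 (0.02), Srebf1 (-0.06) and Acaca (-0.07) were near 0. Cidea, a lipid droplet protein of thermogenic fat, stood at 2.05 and 2.73 against 1.84 and 1.31 (-0.81 ± 0.27), and Ucp1 was above background on none of the arrays.

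Mitochondrial genes had small differences that the pairs did not share. All 36 oxidative phosphorylation genes tested were lower, with a median of -0.19, but the median was 0.12 in the replicate 1 pair and -0.50 in the replicate 2 pair. It was -0.37 and -0.01 without saline replicates 1 and 2, and -0.32 and -0.07 without chrysotile replicates 1 and 2. In 11 of the 36 genes both pairs were lower and in 0 both were higher, where 50.9% of all genes had the same sign in both pairs. Among the 11 were Cycs, cytochrome c, at 7.04 and 7.01 against 6.70 and 6.44 (-0.46 ± 0.13), and the ATP synthase subunit Atp5a1 at 6.74 and 6.89 against 6.52 and 6.35 (-0.38 ± 0.12). Fatty acid oxidation genes were lower in 23 of 24 cases, with a median of -0.17 and pair medians of 0.02 and -0.36; it was -0.33 without saline replicate 1, -0.04 without saline replicate 2 and -0.10 without chrysotile replicate 2. Cytosolic ribosomal proteins were higher in 29 of 30 cases with a median of 0.13 (0.24 and 0.02 in the pairs), -0.01 without chrysotile replicate 1 and 0.22 without chrysotile replicate 2.

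**Figure D3:**
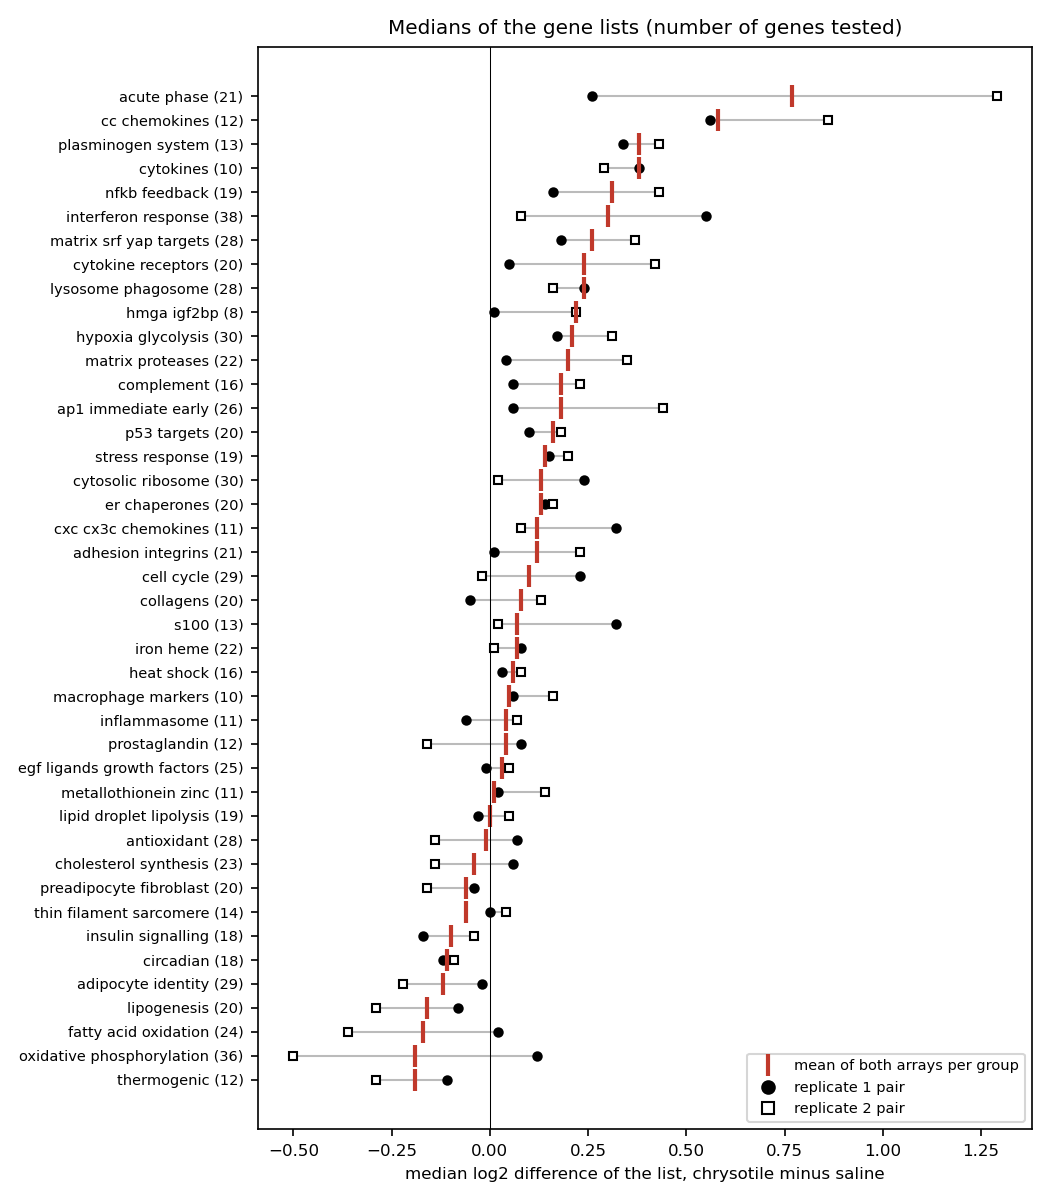
Median log2 difference of chrysotile minus saline for gene lists with at least 8 genes tested; red marks are the differences of group means, filled circles the replicate 1 pair and open squares the replicate 2 pair. Acute-phase genes (0.77) and CC chemokines (0.58) lie highest, and the pair medians fall on opposite sides of 0 for oxidative phosphorylation (0.12 and -0.50).

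Lysosomal and hypoxia lists had positive medians in both pairs. Of 28 lysosome and phagosome genes 23 were higher, with a median of 0.24 (0.24 and 0.16), which was 0.09 without saline replicate 1 and 0.15 without chrysotile replicate 2. At an unadjusted p under 0.05, 7 were higher (12 with the replicate block), among them the cathepsins Ctsh (0.79 ± 0.25) and Ctsc (0.50 ± 0.16, -0.07 by its other probe) and the membrane protein Scarb2 (0.55 ± 0.19). Of 30 hypoxia and glycolysis genes 26 were higher, with a median of 0.21 (0.17 and 0.31), and 5 had an unadjusted p under 0.05 (12 higher and 1 lower with the replicate block). Over all 22899 genes, 618 were higher at this threshold and 1227 with the replicate block. Ndrg1 stood at -0.28 and -0.64 with saline and at 0.05 and 0.48 with chrysotile (0.72 ± 0.19), and the vasodilator peptide Adm at 1.72 and 1.5 against 2.24 and 2.41 (0.72 ± 0.18). The hypoxia target Vegfa (0.03) and the enzyme Ldha (0.09) were near 0. The p53 targets had a median of 0.16 over 20 (0.05 without saline replicate 2 and 0.08 without chrysotile replicate 1), with Plk2, a polo-like kinase, at -1.97 and -1.54 against -0.77 and -0.76 (0.99 ± 0.17) and Cdkn1a at 0.20.

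Most of the named genes with lower levels were dim. Mroh2a, which encodes a HEAT-repeat protein, stood at -0.13 and -0.60 with saline and at -2.26 and -2.41 with chrysotile (-1.97 ± 0.31, limma adjusted p = 0.839), and LOC432842 at -1.72 and -2.19 against -3.81 and -4.85 (-2.37 ± 0.45). The vomeronasal receptor Vmn2r109 was at -4.00 and -4.14 with saline and below background with chrysotile, at least 2.16-fold lower (adjusted p = 0.196), and Vmn1r176, above background on 1 saline array, was at least 1.39-fold lower. Olfactory receptors Olfr141 (-1.89 ± 0.44) and Olfr122 (-1.82 ± 0.52) and the phosphatase Alppl2 (-1.22 ± 0.23) were above background on all 4 arrays. Syna, a placental fusion protein, rested on saline replicate 1, with levels of -0.61 and -3.81 against -4.02 and -4.17.

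The amphibole fibres place these values. The comparisons of each fibre with saline share the saline arrays, so only the direct tests between fibres are differences. Chrysotile minus crocidolite gave no gene past an adjusted p of 0.05 in limma (0%, smallest 0.854), with 495 higher (2.16%) and 143 lower (0.624%) at an unadjusted p under 0.05. Chrysotile minus amosite also gave none (0%, smallest 0.154), with 529 higher (2.31%) and 457 lower (2%). Tnnt2 stood at -2.29 and -1.77 with crocidolite and at -2.67 and -2.92 with amosite, so that chrysotile was higher by 1.68 ± 0.20 and 2.45 ± 0.20 (adjusted p = 0.854 and 0.154). Hmga2 stood at -0.26 and -0.56 with crocidolite and at -0.49 and -1.32 with amosite, below both chrysotile arrays, with differences of 1.62 ± 0.31 and 2.11 ± 0.31. Prl2c5 stood at 0.68 and -0.71 with crocidolite and at 0.01 and -1.45 with amosite (1.78 ± 0.65 and 2.48 ± 0.65).

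The inflammatory genes were placed otherwise. Saa3 stood at 0.79 and 0.81 with crocidolite, inside the span of the chrysotile arrays (-0.30 ± 1.01), and at -3.11 and -2.70 with amosite (3.40 ± 1.01). Ccl2 stood at 2.12 and 2.29 with crocidolite (0.44 ± 0.56) and at 0.07 and 0.49 with amosite (2.37 ± 0.56). Spp1 stood at 2.57 and 2.66 with crocidolite, below both chrysotile arrays (0.60 ± 0.32), and at 1.28 and 1.13 with amosite (2.01 ± 0.32). Mroh2a, at -0.53 and -0.35 with crocidolite and -1.19 and -0.28 with amosite, was lower with chrysotile by direct differences of -1.89 ± 0.31 and -1.60 ± 0.31. None of these direct differences passed after adjustment, which does not show that the fibres act alike.

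**Figure D4:**
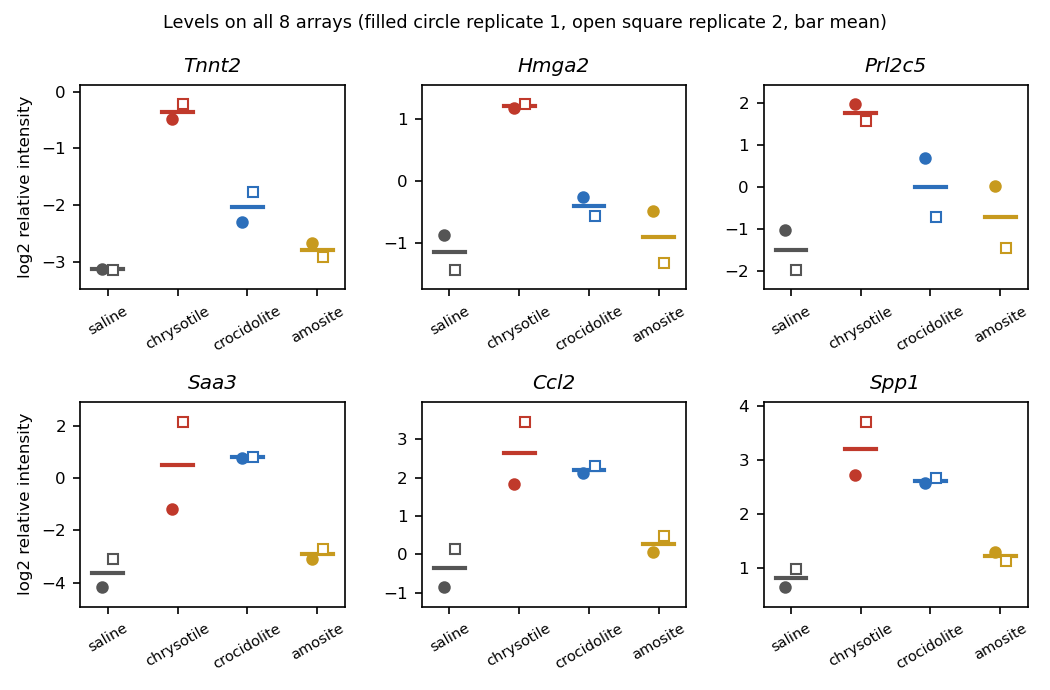
Level of 6 transcripts on all 8 arrays (log2 intensity relative to the 75th percentile of the array; each panel has its own axis); circles are replicate 1, squares replicate 2 and bars group means. For Tnnt2, Hmga2 and Prl2c5 both chrysotile arrays lie above all others, whereas for Saa3 the crocidolite arrays (0.79 and 0.81) lie between the chrysotile arrays.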

How the data were processed

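Total RNA was labelled with Cy3 and hybridised to 8 one-colour Agilent mouse arrays on 1 slide. Per the file headers the arrays were read with Feature Extraction 10.7.1.1 (10.7 per the submitters' processing notes); the deposited values are the processed signal, a linear intensity per spot, background-subtracted and not scaled between arrays. The values in the deposited matrix were identical to these (largest difference 0). Here each array's 75th percentile was subtracted from its log2 intensities, control and outlier spots (99 to 183 per array) were left out, and 9 probes without a value on some array did not enter the fit. Probes well above background on both arrays of at least 1 group were kept (33044). The brightest probe stood for each of 22899 genes, 15297 of them with a symbol. One limma fit (lmFit and eBayes, 4 residual and 2.22 prior degrees of freedom) of all 8 arrays gave two-sided p-values, Benjamini-Hochberg adjusted over all genes. Software was R 4.3.3, limma 3.58.1 and data.table (1.17.8).

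On simulated data the fit of chrysotile minus saline (22899 genes) recovered 33 of 67 genes shifted by 1 log2 unit, 56 of 67 shifted by 2 and 65 of 66 shifted by 4, with 6 false calls. The simulated noise was normal and independent between arrays, with variances already moderated over genes. It held no shared deviation of same-numbered arrays, so these shares may not hold for the real arrays. Where neither array of a group was above background, the fold is printed as at least N-fold, with that group raised on each array to the lowest level of a probe called above background. A background value above that level was left as measured, so the fold is a bound only under this rule and this processing. Over the alternative settings the fitted log2 differences of such genes came near 0. The values nearest 0 were 0.06 for Ptgs2, 0.18 for Oas3, 0.37 for Plau, -0.44 for Vmn1r176 and -0.61 for Vmn2r109. Same-numbered arrays deviated together (between 0.25 and 0.46 as a correlation, over 6 group pairs; 0.25 for chrysotile and saline), and the number was also the slide column, so the replicate block is given where it moves a printed count by more than 1.5 times. The labels do not say what the number marks. Slide as a block could not be run with 1 slide.

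The members and gene lists were chosen with earlier results of these data known. Named are the 12 higher and 12 lower genes with a symbol and the smallest p, the 10 higher and 10 lower with the largest non-overlapping difference above background on all 4 arrays, up to 4 members of each list by size, and 28 chosen genes; not all are printed, and other list members appear as single values. One of the named genes is not reported here. Promoter sequences, available for 19 of the 28, came from RefSeq (GRCm38.p6).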

Additional observations from a re-analysis of the deposited data

How the results depend on the processing

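Leaving out an array leaves 1 in its group, assumed to vary like the others. The count of genes past an adjusted 0.05 for chrysotile minus saline was 3 with quantile normalization (Tnnt2, Vmn2r109 and 1 unnamed transcript), 2 with median centring, 1 with a trended and robust prior, and 0 to 62 with an array left out (62 without saline replicate 2, 8 without chrysotile replicate 1, 1 without chrysotile replicate 2). It stayed 0 in the other settings run, the replicate block included, which moved unadjusted calls to 1227 higher and 1242 lower and changed no adjusted call. With chrysotile and saline arrays alone these were 381 and 324. Unadjusted lower genes numbered 1451 with normexp, 400 with median centring and 2285 with no filter on dim probes. With an array left out, higher genes ran from 401 to 1424 and lower genes from 319 to 1196. The 2-fold counts were 112 higher and 8 lower with normexp, 347 and 819 with no filter, 89 and 46 with only probes above background on all 4 arrays, and 278 to 605 and 143 to 406 with an array left out. Chrysotile minus crocidolite and minus amosite gave 0 to 1, the 1 (Tigit) without chrysotile replicate 2. Small differences changed sign: Pparg was 0.02 with median centring, and with an array left out Pparg ran from -0.26 to 0.19, Cebpa from -0.47 to 0.16, Lep from -0.58 to 0.27, Adipoq from -0.42 to 0.02 and Plin1 from -0.46 to 0.02; the cause was not tested. Of the other gene values, 780 kept their direction and side of the threshold and 9 kept their direction and newly passed it.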

Other observations

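Beyond the listed genes, several of the 182 genes at least 2-fold higher encode secreted or surface proteins; those named here were chosen after their values were seen. Grem1, an antagonist of bone morphogenetic proteins, was higher by 2.15, Ackr3, a scavenging receptor of Cxcl12, by 2.09, and Trem2, a lipid-sensing receptor of myeloid cells, by 1.98, each above background on all 4 arrays. Dmkn and Sbsn, neighbouring genes of skin barrier proteins, were higher by 2.19 and 2.08. S100g, a calcium-binding protein, was below background with saline and at least 1.95-fold higher. Wt1, a transcription factor of mesothelium, stood at -4.36 and -4.13 with saline and at -3.71 and -1.49 with chrysotile (1.65 ± 0.73), while the mesothelial marker Msln stood at -0.09 ± 0.47. Tigit, an immune receptor gene, had a fitted difference of 4.07 but was below background on both saline arrays, and its levels with chrysotile were -1.29 and -3.86.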
